A study of Mus musculus with 4 samples.

Results

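Transcription factors that direct the fate of myeloid progenitors and monocytes were followed in classical monocytes of mouse bone marrow. The 10 genes, Irf8, Irf4, Irf5, Klf4, Zeb2, Nr4a1, Spi1, Cebpa, Cebpb and Gfi1, were found by symbol among the 27998 genes of both expression matrices, and all 10 were present in each. C57BL/6 mice of WT genotype had been used, with 5 young and 5 old mice per sex. The male pool set mice of 14 weeks against mice of 27 months, and the female pool mice of 15 weeks against mice of 26.5 months. Each mouse carried its own hashtag antibody, the 10 mice of a sex were pooled, and Ly6G-CD11b+CD115+Ly6Chi cells were sorted and sequenced from the 3′ end of transcripts on the 10x platform. The sexes were separate experiments, so that sex and experiment cannot be told apart, and only the age effect within a pool and its difference between the pools were read. The mouse was the replicate in every test, and a level is the mouse's summed unique molecular identifiers (UMIs) of a gene scaled to the mouse's total (CPM). A level per mouse cannot tell fewer positive cells from less RNA per cell. The 3′ UMI counts were not scaled to transcript length. Levels were compared within a gene and not between genes.

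The cells used were 1227 in the male pool, with 49 to 206 per mouse, and 6641 in the female pool, with 259 to 1592 per mouse. No barcode was shared between the pools. RNA of the gate markers was detected in unequal shares of cells. Ly6c2 was detected in 93.5% of male and 99.5% of female cells. Csf1r, which encodes CD115, was detected in 54.1% and 90.9%, and Itgam, which encodes CD11b, in 34.2% and 66.0%. Ly6g, a neutrophil marker outside the gate, was detected in 0.244% and 0.331%. Median UMIs per cell were higher in old mice in both pools, at 5905 ± 1798 against 4083 ± 291 (SD, n = 5 each) in males and 10976 ± 1378 against 8642 ± 399 in females (two-sided exact permutation p = 0.00794 in each pool, the smallest this design allows, and 0.0317 after adjustment over 8 tests of pool measures). The 4 genes of the dendritic-like list (Cd74, H2-Eb1, H2-Aa and H2-Ab1), all detected in each group, summed to 446 to 943 CPM in young and 1026 to 7947 CPM in old females, without overlap, and to 942 to 1797 and 281 to 9737 CPM in young and old males. The neutrophil list (Ly6g, Ltf, Camp and Ngp) was uneven between mice, reaching 1148 CPM in a young female and 4357 CPM in an old male.

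Progenitors of 2 kinds feed the pool of classical monocytes. Cells of the granulocyte-monocyte branch carry traces of the neutrophil program and are named NeuMo, and cells of the monocyte-dendritic cell branch, named DCMo, can become dendritic cells. Spi1 encodes PU.1, the factor that opens the myeloid program, and Cebpa acts with it in granulocyte-monocyte progenitors, whereas Cebpb is known for stress-driven myelopoiesis and for the survival of monocytes. Irf8 drives the monocyte and dendritic cell fates against the neutrophil fate and acts upstream of Klf4, which is needed for monocyte formation. Gfi1 represses monocyte genes and favours neutrophils. Zeb2 is a repressor with roles in dendritic cell and monocyte identity, Irf4 is known for monocyte-derived dendritic cells, Irf5 for inflammatory gene induction in macrophages, and Nr4a1 for the survival of Ly6C-low monocytes. The granule proteases and peroxidase encoded by Elane, Prtn3, Mpo and Ctsg are made at the promyelocyte stage and mark the granulocyte-monocyte route, and their summed share of a cell's UMIs, called the granule share here, served as the axis along which the 10 factors were followed.

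The promoters of 4 members are printed to show the sequence from which their transcription starts: Klf4 and Cebpb, which changed with age in females, and Irf8 and Nr4a1, which moved in opposite directions along the granule share. Irf4, Gfi1, Zeb2 and Irf5 had larger differences along that share than Irf8 in females and are not printed. Zeb2, which also changed with age, has 4 start sites in the table and is not printed. Each window holds 250 bases before and 50 bases from the RefSeq start site onward (GRCm38.p6). The RefSeq table held 9 of the 10 members, with 14 start sites in all, and Spi1 did not match. Capitals mark the gamma-activated site letters TTCNNNGAA and the TATA letters TATAAA in Irf8, the cyclic AMP response element core TGACG or its reverse complement CGTCA in Nr4a1, that core and the GC box GGGCGG or its reverse complement in Klf4, and that core and TATAAA in Cebpb. The Irf8 window printed, chr8:120736108-120736407 on the plus strand, held 2 TTCNNNGAA matches, beginning at positions -171 and -153 from the start site, and TATAAA at -31. Irf8 has a further start site, whose window, chr8:120738389-120738688, held neither TTCNNNGAA nor TATAAA and is not printed.
Irf8: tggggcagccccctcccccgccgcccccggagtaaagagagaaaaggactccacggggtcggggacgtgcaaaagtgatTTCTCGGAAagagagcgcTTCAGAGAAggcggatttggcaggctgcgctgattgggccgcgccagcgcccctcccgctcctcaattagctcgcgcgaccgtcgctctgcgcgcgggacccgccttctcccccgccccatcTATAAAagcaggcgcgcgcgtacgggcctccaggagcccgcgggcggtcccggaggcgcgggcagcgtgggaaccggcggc
The Nr4a1 window, chr15:101266596-101266895 on the plus strand, held 4 cores, at -233, -213, -69 and -40.
Nr4a1: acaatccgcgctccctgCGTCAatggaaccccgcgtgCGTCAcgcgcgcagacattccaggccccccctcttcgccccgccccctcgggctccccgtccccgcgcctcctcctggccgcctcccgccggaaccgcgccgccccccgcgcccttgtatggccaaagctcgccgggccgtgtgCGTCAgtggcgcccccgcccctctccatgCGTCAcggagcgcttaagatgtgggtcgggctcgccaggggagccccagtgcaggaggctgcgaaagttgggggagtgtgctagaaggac
The Klf4 window, chr4:55532426-55532725 on the minus strand, held 1 core at -232 and 4 GC boxes, of which those at -217 and -212 overlap by a base.
Klf4: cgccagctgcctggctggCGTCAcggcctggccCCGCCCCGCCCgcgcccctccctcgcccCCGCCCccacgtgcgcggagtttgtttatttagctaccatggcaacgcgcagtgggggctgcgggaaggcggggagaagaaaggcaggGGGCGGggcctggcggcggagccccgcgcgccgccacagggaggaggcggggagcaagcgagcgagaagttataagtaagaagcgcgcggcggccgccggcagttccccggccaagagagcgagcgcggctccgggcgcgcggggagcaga
The Cebpb window, chr2:167688665-167688964 on the plus strand, held 3 cores, at -180, -53 and -7, and TATAAA at 22.
Cebpb: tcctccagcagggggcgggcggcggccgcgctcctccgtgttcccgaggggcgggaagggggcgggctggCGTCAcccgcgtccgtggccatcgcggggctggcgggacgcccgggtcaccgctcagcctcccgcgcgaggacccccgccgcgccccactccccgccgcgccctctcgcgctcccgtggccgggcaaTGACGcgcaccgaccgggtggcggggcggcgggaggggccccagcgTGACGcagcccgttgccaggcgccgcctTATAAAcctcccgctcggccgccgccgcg
Searched on both strands in the 32851 windows of the table, TTCNNNGAA was found in 8.30% of windows and at least 2 times in 0.457%, TGACG in 20.8% and at least 4 times in 0.231%, GGGCGG in 35.7% and at least 4 times in 5.49%, and TATAAA in 13.6%. A match describes letters in a window and not a bound site.

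In females, Klf4 and Zeb2 fell and Cebpb rose with age, and the other 7 members did not pass the test. Klf4 (ENSMUSG00000003032, chr4:55527143-55532466, minus strand) was measured at 334, 372, 345, 346 and 347 CPM in the 5 young and at 231, 250.03, 265, 271 and 185 CPM in the 5 old females. Every old mouse lay below every young mouse. The means were 348 ± 13.9 and 240 ± 34.8 CPM (SD, n = 5 each), a log2 difference of -0.53 (SE 0.08) or 0.693-fold (edgeR adjusted p = 0.00158). Zeb2 (ENSMUSG00000026872, chr2:44983632-45117395, minus strand) was at 569, 578, 561, 554 and 550.2 CPM in young and at 497, 485, 477, 479 and 439 CPM in old females, again without overlap. Its mean went from 563 ± 11.4 to 475 ± 21.9 CPM, a log2 difference of -0.24 (SE 0.04) or 0.849-fold (edgeR adjusted p = 0.00238), and the young mice differed among themselves by a coefficient of variation of 2.02%. Cebpb (ENSMUSG00000056501, chr2:167688915-167690418, plus strand) was at 837, 805, 752, 928 and 919 CPM in young and at 922, 968, 1132, 1103 and 941 CPM in old females. One old mouse lay within the young range, and the means of 848 ± 75.1 and 1013 ± 96.9 CPM differed by 0.26 on the log2 scale (SE 0.06, 1.2-fold, edgeR adjusted p = 0.0326). Of the 10 members, 1 was called upward and 2 downward, beside 2.03% upward and 1.4% downward of the 10074 genes tested, and 2 of 10 did not overlap between the ages, beside 5.74% of all genes tested.

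Irf8 came next. Irf8 (ENSMUSG00000041515, chr8:120736358-120756694, plus strand) was at 516, 499.8, 485, 492 and 438 CPM in young and at 357, 438, 468, 388 and 429 CPM in old females. The ages overlapped through the young mouse at 438 CPM, and the means of 486 ± 29.3 and 416 ± 43.8 CPM differed by -0.22 on the log2 scale (SE 0.06, 95% interval -0.34 to -0.10, edgeR adjusted p = 0.0715). This value stood near the threshold, since DESeq2 gave an adjusted p of 0.0434 and leaving out cells with markers of other cell types gave an edgeR adjusted p of 0.0293. That filter left out cells with 2 or more UMIs of T or NK cell, basophil, B cell or plasmacytoid dendritic cell genes. It removed 528 of the 6641 female cells, and 2247 of the 3044 UMIs of these lists were of 1 gene, Cd79b. The 2 sparse factors had lower means in old females without passing the test. Irf4 (ENSMUSG00000021356, chr13:30749226-30766976, plus strand) had 276 UMIs in young and 199 in old mice, 7.53 ± 1.75 against 4.89 ± 1.14 CPM, and Nr4a1 (ENSMUSG00000023034, chr15:101254269-101274795, plus strand) had 578 and 390 UMIs, 13.5 ± 3.12 against 9.62 ± 3.01 CPM. Their log2 differences were -0.47 (SE 0.18, edgeR adjusted p = 0.202) and -0.50 (SE 0.18, edgeR adjusted p = 0.162). Their 95% intervals, without adjustment, were -0.83 to -0.11 and -0.85 to -0.15.

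The remaining members did not pass the test either. Spi1 (ENSMUSG00000002111, chr2:91082390-91115756, plus strand) was at 591 ± 32.0 and 615 ± 28.7 CPM, a log2 difference with a 95% interval of -0.01 to 0.14. Cebpa (ENSMUSG00000034957, chr7:35119293-35121928, plus strand) was at 79.8 ± 9.25 and 79.4 ± 13.3 CPM, with an interval of -0.20 to 0.20. Irf5 (ENSMUSG00000029771, chr6:29526625-29541871, plus strand) was at 257 ± 4.16 CPM in young and 239 ± 26.2 CPM in old females. Its 5 young values spanned only 251.3 to 262 CPM, whereas the old values spanned 203 to 272 CPM. Gfi1 (ENSMUSG00000029275, chr5:107716657-107726036, minus strand) was near its detection limit, with 79 and 82 UMIs over 5 mice each, or 2.20 ± 1.01 and 2.20 ± 0.829 CPM. Its interval of -0.45 to 0.70 was too wide to tell a change from none.

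**Figure D1:**
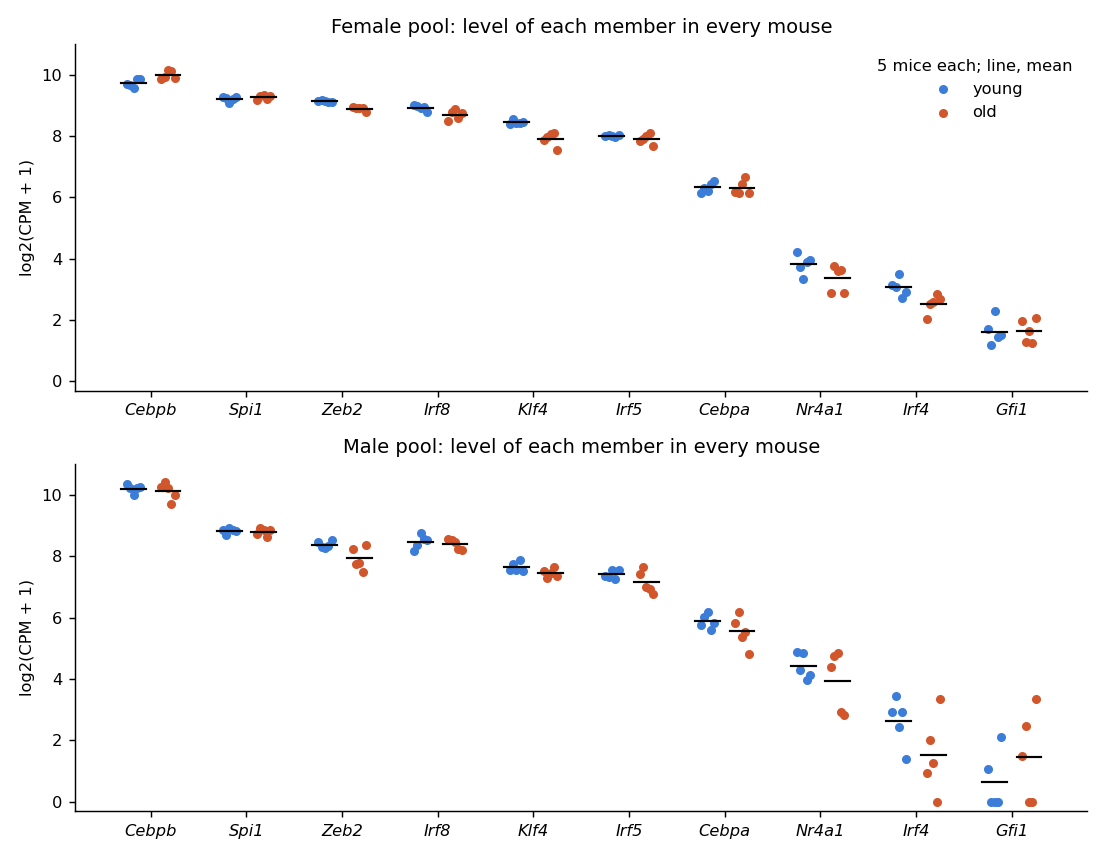
Level of each of the 10 members in every mouse of the female (upper) and male (lower) pool, as log2(CPM + 1), with 1 point per mouse, 5 young and 5 old mice per pool, and a line at the mean. The old females lie below all young females for Klf4 and Zeb2, and no member separates the ages in males.

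The drop of Klf4 in old females came with the rise of depth and of the dendritic-like list given above. With every cell thinned to 2000 UMIs, the log2 differences were -0.60 for Klf4 (edgeR adjusted p = 7.27e-05), -0.30 for Zeb2 (edgeR adjusted p = 0.0014) and 0.32 for Cebpb (edgeR adjusted p = 0.0125), and without cells bearing markers of other cell types they were -0.54, -0.24 and 0.27. The part of the dendritic-like list in these differences was not tested. The marker filter rests largely on Cd79b, as given above, and whether it removed only cells of other types was not tested. Klf4 was called in all 10 fits that left out a mouse (-0.57 to -0.45), and so was Zeb2 (-0.25 to -0.21). Cebpb lost the call without old mouse 3 (edgeR adjusted p = 0.0717) and without young mouse 1 (0.0885), 2 (0.103) or 3 (0.0892). Over all 20 alternatives, including fits within ranges of the granule share, Klf4 was called in 19, Zeb2 in 18 and Cebpb in 15.

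In males no member passed the test. Of 5656 genes tested by edgeR, 0 were called (0%), 618 were under 0.05 before adjustment, and 22 were called by DESeq2, none of them a member. The 8 members with enough counts had a median log2 difference of -0.18, beside 0.01 over all genes tested. Zeb2 was at 356, 316, 309, 321 and 365 CPM in young and at 301, 214, 221, 179 and 330 CPM in old males. All but 1 of the old males lay below the young range, and the means of 333 ± 25.6 and 249 ± 63.6 CPM differed by -0.43 on the log2 scale (SE 0.13, edgeR adjusted p = 0.246). Without the filter on low counts, the edgeR adjusted p of Zeb2 was 0.0327. Klf4 was at 188, 213, 188, 236 and 184 CPM in young and at 182, 157, 176, 200.4 and 163 CPM in old males, with 4 of 5 old mice below the young range. Its log2 difference was -0.20 (SE 0.10, edgeR adjusted p = 0.456). The ages overlapped for 10 of 10 members, beside 2.12% of all genes that did not overlap.

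Irf8 in males was at 359 ± 55.3 and 339 ± 37.0 CPM, with a 95% interval of the log2 difference from -0.28 to 0.14, and Cebpb was at 1185 ± 103 and 1131 ± 211 CPM, with an interval from -0.28 to 0.15. Irf5 was at 170 ± 17.3 and 146 ± 38.9 CPM, Spi1 at 455 ± 25.2 and 447 ± 34.3 CPM, Cebpa at 58.5 ± 9.34 and 48.2 ± 16.6 CPM, and Nr4a1 at 21.1 ± 6.42 and 17.2 ± 10.4 CPM. Irf4 and Gfi1 were too sparse to test, with 21 and 3 UMIs in young and 7 and 8 UMIs in old males. The male pool held 330586 to 1108320 UMIs per mouse against 2827638 to 18186954 in the female pool, so that smaller differences could be seen in females.

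Whether the sexes differed in the age effect was tested directly. None of the 9 members tested differed between the pools, beside 0.0225% of 8893 genes called by edgeR (2 genes, with 527 at an unadjusted p under 0.05 and 4 called by DESeq2). The largest member values were those of Irf4 at 0.99 (SE 0.71), Cebpb at 0.33 (SE 0.14, unadjusted p = 0.0250, edgeR adjusted p = 0.793) and Klf4 at -0.32 (SE 0.13, unadjusted p = 0.0201, edgeR adjusted p = 0.750), as age effect in females minus that in males. For Zeb2 the value was 0.20 (SE 0.14, edgeR adjusted p = 0.919). Calls in females alone are therefore not shown to be particular to females.

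Along the granule share the members parted. Cells were cut within each pool at the 50th, 75th and 90th percentile of the share, and cells over the 90th percentile (granule-high, 664 female and 123 male cells) were compared with cells at or under the 50th (granule-low, 3321 and 614 cells) within each mouse, with the 4 granule genes left out of the counts. The classes are ranges of a score and not cell types. In the female pool the median share was 0.0339% of UMIs in granule-low and 2.05% in granule-high cells, and the 996 cells between the 75th and 90th percentile lay directly below the upper limit. In females 2 of 10 members rose and 8 fell in granule-high cells, beside 39.4% upward and 42.1% downward of 8338 genes. Among these members, Gfi1, Irf4 and Nr4a1 passed the filter on low counts through the class where they were high. In males 6 members could be tested, of which 1 rose and 5 fell, beside 33.2% and 33% of 2041 genes. Since most genes were called in this contrast, the sizes of the differences are given.

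Irf8 was the abundant member that rose. Over the 10 female mice its level in granule-low cells ranged from 245 to 406 CPM (median 341 CPM) and in granule-high cells from 440.4 to 715 CPM (median 650.3 CPM). The means climbed from 332 over 399 and 556 to 634 CPM through the 4 classes, and Irf8 was higher in granule-high cells in 10 of 10 females and 10 of 10 males. The log2 difference was 0.96 (SE 0.05, edgeR adjusted p = 3.18e-17) in females and 0.92 (SE 0.09, edgeR adjusted p = 2.09e-09) in males, where the mean went from 264 to 540.2 CPM. Irf8, a factor known to oppose the neutrophil fate, thus had its highest mean of the 4 classes in granule-high cells of both pools. Within that class in females, cells with a Gfi1 UMI held more Elane and less Irf8 than the others, as given below.

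Zeb2 and Irf5 fell by far. Female Zeb2 went from 745 ± 60.7 CPM in granule-low cells over 579 and 339 CPM to 230 ± 36.4 CPM in granule-high cells, a log2 difference of -1.68 (SE 0.05, edgeR adjusted p = 6.42e-23). In males Zeb2 went from 357 ± 72.8 to 143 ± 59.1 CPM, at -1.37 (SE 0.15, edgeR adjusted p = 1.62e-08). Female Irf5 went from 312 ± 23.3 CPM over 290 and 225 CPM to 108 ± 19.0 CPM, at -1.52 (SE 0.06, edgeR adjusted p = 2.08e-18), and male Irf5 from 203 ± 32.5 to 69.3 ± 27.3 CPM, at -1.58 (SE 0.16, edgeR adjusted p = 1.27e-09). Both genes were lower in granule-high cells in every mouse of both pools, with no overlap between the classes.

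Spi1, Cebpb and Cebpa moved less than Zeb2 and Irf5. Spi1 fell by 0.45 on the log2 scale (SE 0.03) in females, from 663 ± 41.5 to 478 ± 28.8 CPM, and by 0.46 (SE 0.08) in males, and was lower in 20 of 20 mice. Cebpb fell by 0.33 (SE 0.04) in females, from 1005 ± 132 to 785 ± 109 CPM, and by 0.68 (SE 0.08) in males, from 1221 ± 229 to 849 ± 191 CPM. Cebpa, lower in 10 of 10 females, fell by 0.67 (SE 0.07), from 97.4 ± 14.4 to 59.4 ± 8.53 CPM. In males Cebpa was not tested, and its 148 and 76 UMIs gave 50.7 ± 21.9 CPM in granule-low and 61.6 ± 30.0 CPM in granule-high cells.

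Klf4 followed a course of its own, with its highest mean below the top class. Female means were 267 ± 83.1 CPM in granule-low cells, 319 and 385 CPM in the middle classes and 224 ± 46.7 CPM in granule-high cells. Granule-high was lower than granule-low in 7 of 10 females and in 7 of 10 males. The sign differed between the ages in females, where the young mean went from 342 to 237 CPM, lower in 5 of 5 mice, and the old mean from 193 to 211 CPM, higher in 3 of 5. The pooled female log2 difference of -0.20 (SE 0.08, edgeR adjusted p = 0.0280) also depended on the limits and cells chosen: it was 0.18 (edgeR adjusted p = 0.00886) with the upper class cut at the 80th percentile, 0.01 without cells bearing markers of other cell types, and -0.60 (edgeR adjusted p = 1.09e-08) among cells in the upper range of cycling share. Without young mouse 1, 2, 4 or 5 it was not called (edgeR adjusted p 0.0659 to 0.139). In males the difference was -0.55 (SE 0.16, edgeR adjusted p = 0.00298), with means of 192, 211, 210.3 and 141 CPM through the classes.

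The 3 sparse members lay at opposite ends. In females Irf4 and Nr4a1 passed the filter on low counts through granule-low cells, and Gfi1 through granule-high cells. The direction of their fits was therefore tied to that filter, and their adjusted p values are given as a description and not as support. Irf4 had 349 UMIs in female granule-low and 2 in granule-high cells, which is 87.7-fold lower per UMI sequenced. The exact 95% interval of 24.1 to 727 is on UMIs summed over all mice and covers counting error only. With the mouse as a block, the log2 difference was -5.95 (SE 0.34, edgeR adjusted p = 2.23e-15). In males Irf4 had 18 UMIs against 0. Taking 3 counts over the class at 0 as the floor, it was at least 2.93-fold lower. This is a lower bound and not the size of the difference, and it leaves out the counting error of the 18 UMIs. Nr4a1 went from 21.4 ± 7.66 CPM over 11.9 and 3.49 CPM to 1.43 ± 1.34 CPM in females (log2 difference -3.90, SE 0.25, edgeR adjusted p = 1.95e-14), and it had 89 UMIs in male granule-low and 6 in granule-high cells. Gfi1 showed the reverse. In females it had 8 UMIs in granule-low and 141 in granule-high cells, 0.259 ± 0.365 against 10.3 ± 4.23 CPM (log2 difference 4.89, SE 0.31, edgeR adjusted p = 2.15e-14). In males Gfi1 had 0 against 10 UMIs, at least 6.82-fold higher with the same floor, again a lower bound that leaves out the counting error of the 10 UMIs. The neutrophil list summed to a median of 10.2 and 10.5 CPM over the females and 18.6 and 8.80 CPM over the males in granule-low and granule-high cells, but reached 1054 CPM in a female and 10671 CPM in a male in granule-high cells. Without cells bearing 2 or more UMIs of the neutrophil or Ly6C-low monocyte list, Gfi1 had 129 UMIs in the 638 female and 6 UMIs in the 118 male granule-high cells left, and every other member tested in either pool kept its direction and its call.

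Gfi1 was detected in few cells even there. A Gfi1 UMI was found in 101 of 664 granule-high female cells (15.2%, median depth 22702 UMIs) and in 8 of 3321 granule-low cells (0.241%, median depth 7978 UMIs). After thinning to 2000 UMIs, 11 of 663 (1.66%) and 2 of 3320 (0.0602%) were positive. The 101 positive cells held more Elane than the 563 negative cells of the same class, at 13827 against 7971 CPM, and less Irf8, at 474 against 662 CPM. The secondary granule gene Camp summed to 354 against 93.2 CPM, while Ly6g had only 2 and 4 UMIs. Of the 101 cells, 94 held fewer than 2 UMIs of the neutrophil and Ly6C-low monocyte lists together. Most of the 923 Camp UMIs of the 101 cells therefore lay in the few others, and Camp was not a trait of the positive cells as a whole. In males the 9 positive cells held more Elane than the 114 negative ones, at 10040 against 4077 CPM, with Irf8 at 512 and 538 CPM and no Ly6g UMI. The secondary granule genes Camp and Ngp summed to 9087 against 1121 CPM and to 3258 against 570 CPM. Of the 9 cells, 6 held fewer than 2 UMIs of the neutrophil and Ly6C-low monocyte lists together. Most of the 887 Camp and 318 Ngp UMIs of the positive cells therefore lay in the others. These values sum cells of all mice and describe them without a test.

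**Figure D2:**
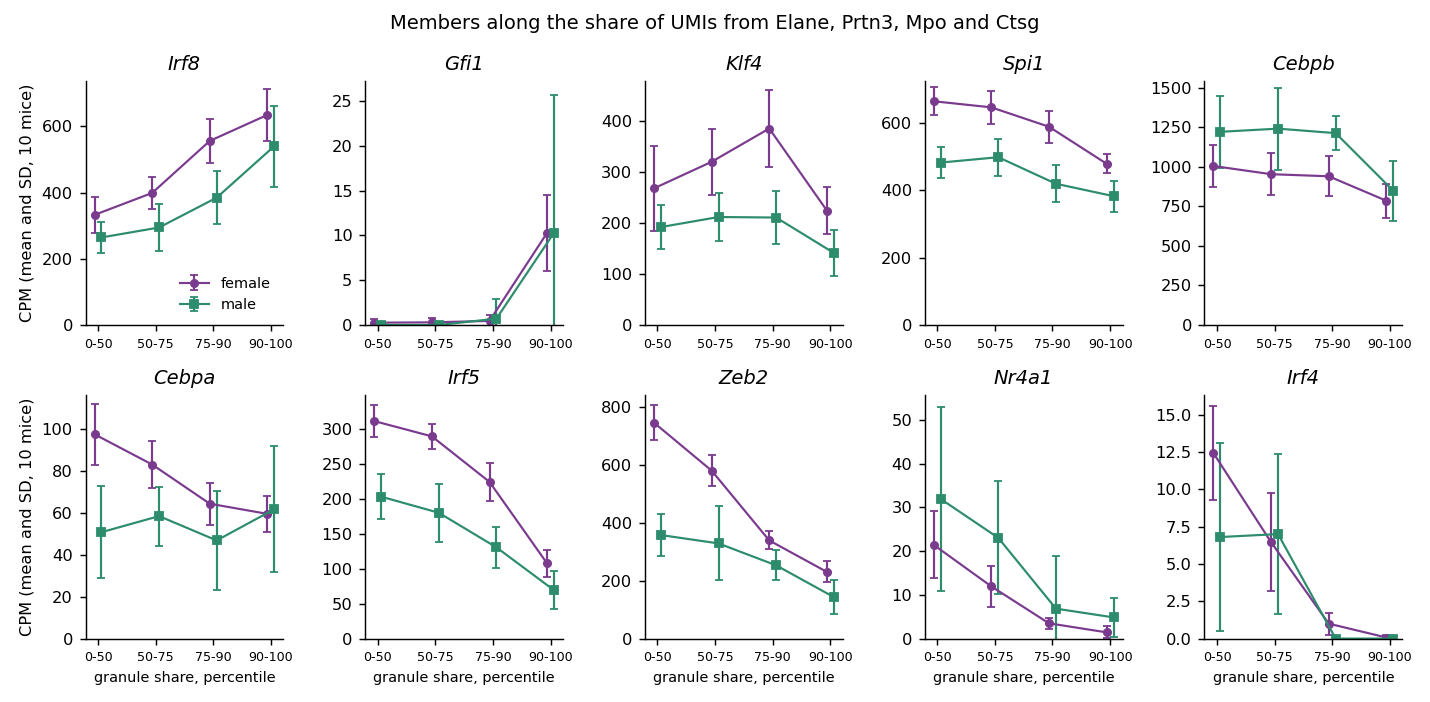
Level in CPM of each member in 4 classes of granule share (percentiles 0-50, 50-75, 75-90 and 90-100), as the mean and SD over 10 mice for the female and the male pool, each panel on its own axis starting at 0. Irf8 rises from class to class, Zeb2, Irf5, Nr4a1 and Irf4 fall, Klf4 peaks at 385 CPM in the 75-90 class of females, and Gfi1 is at 0.457 CPM or less in the first 3 female classes and at 10.3 CPM in the 90-100 class.

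Depth and the cell cycle moved with the granule share. Median UMIs per cell rose from 7978 in granule-low to 22702 in granule-high cells of the female pool and from 3973 to 10423 in the male pool, and the share of UMIs from 20 S and G2/M genes rose from 0.0696% to 0.610% and from 0.0613% to 0.478%. No granule-high cell lay at or under the median of cycling share in either pool (0 of 664 and 0 of 123). Restricted to cells over that median (831 granule-low and 664 granule-high female cells), the log2 differences were 0.84 for Irf8, -1.32 for Irf5, -1.29 for Zeb2, -0.28 for Spi1 and -0.36 for Cebpa, all still called, whereas Cebpb was at -0.06 (edgeR adjusted p = 0.196). In males (201 and 123 cells) they were 0.82 for Irf8, -1.32 for Irf5, -0.88 for Zeb2, -0.65 for Klf4 and -0.34 for Cebpb, all called, and -0.22 for Spi1 (edgeR adjusted p = 0.0631). When cells at or under the median of cycling share were cut anew, their upper class reached a median granule share of only 0.1003%. Of the members, Zeb2 alone was called in that comparison, at -0.18 (edgeR adjusted p = 0.0192) in females, and Irf8 was at -0.01.

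The age effect on Klf4 depended on the class. In granule-low cells of females, Klf4 was at 316, 395, 322, 334 and 340.4 CPM in young and at 182, 204, 217, 213 and 149 CPM in old mice, without overlap. The means of 342 ± 31.2 and 193 ± 28.0 CPM gave a log2 difference of -0.80 (SE 0.08, edgeR adjusted p = 1.21e-05). In granule-high cells it was at 236, 229.7, 264, 253 and 201 CPM in young and at 160.3, 236, 223, 296 and 139.7 CPM in old mice. There the old values spread on both sides of the young ones, and the difference was -0.15 (SE 0.13, edgeR adjusted p = 0.824). In the middle classes Klf4 was also lower in every old female, at 261 ± 29.1 against 378 ± 15.0 CPM and at 320 ± 44.5 against 449 ± 15.8 CPM.

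Tested as an interaction of class and age, the drop of Klf4 with age was smaller in granule-high than in granule-low cells. The age effect in granule-high minus that in granule-low cells was 0.65 on the log2 scale (SE 0.11, edgeR adjusted p = 0.00232). Klf4 was the 1 member called of 10 tested, beside 0.269% of 8907 genes (24 genes). The call was lost with cells thinned to 2000 UMIs (0.38, edgeR adjusted p = 0.877), among cells over the median of cycling share (0.47, edgeR adjusted p = 0.141) and without old mouse 4 (0.50, edgeR adjusted p = 0.0524), and it held in 14 of 17 alternatives. Irf5 came next at 0.40 (SE 0.11, edgeR adjusted p = 0.139). In males 7 members were tested and none called, beside 0 of 2581 genes (0%) with edgeR, 112 genes at an unadjusted p under 0.05 and 0 genes with DESeq2, and Klf4 was at 0.48 (SE 0.31, edgeR adjusted p = 0.989). The dendritic-like list held 0.323% of UMIs in granule-low and 0.0101% in granule-high female cells, and its part in the difference was not tested.

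Within single classes the other members with an age effect were Irf8, Cebpb and Zeb2. In granule-low female cells Irf8 was at 375 ± 27.2 CPM in young and 290.1 ± 37.7 CPM in old mice, a log2 difference of -0.34 (SE 0.07, edgeR adjusted p = 0.0104), and Cebpb rose by 0.30 (SE 0.06, edgeR adjusted p = 0.00902). These are 1 of 9 members upward and 2 downward, with Klf4, beside 2.88% upward and 0.984% downward of 8840 genes. In granule-high female cells Zeb2 was at 277, 282, 246, 237 and 259.5 CPM in young and at 220.2, 214, 187, 189.9 and 186 CPM in old mice, without overlap, and differed by -0.40 (SE 0.07, edgeR adjusted p = 0.00306). Cebpb rose there by 0.29 (SE 0.06, edgeR adjusted p = 0.0259), so that 1 of 8 members was upward and 1 downward, beside 0.357% and 0.145% of 7569 genes. Zeb2 in granule-low cells (-0.13, SE 0.05, edgeR adjusted p = 0.225) and Irf8 in granule-high cells (-0.19, SE 0.07, edgeR adjusted p = 0.410) were not called. The age effects of Zeb2 and Irf8 did not pass the test of a difference between the classes, at -0.24 (edgeR adjusted p = 0.261) and 0.17 (edgeR adjusted p = 0.627).

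**Figure D3:**
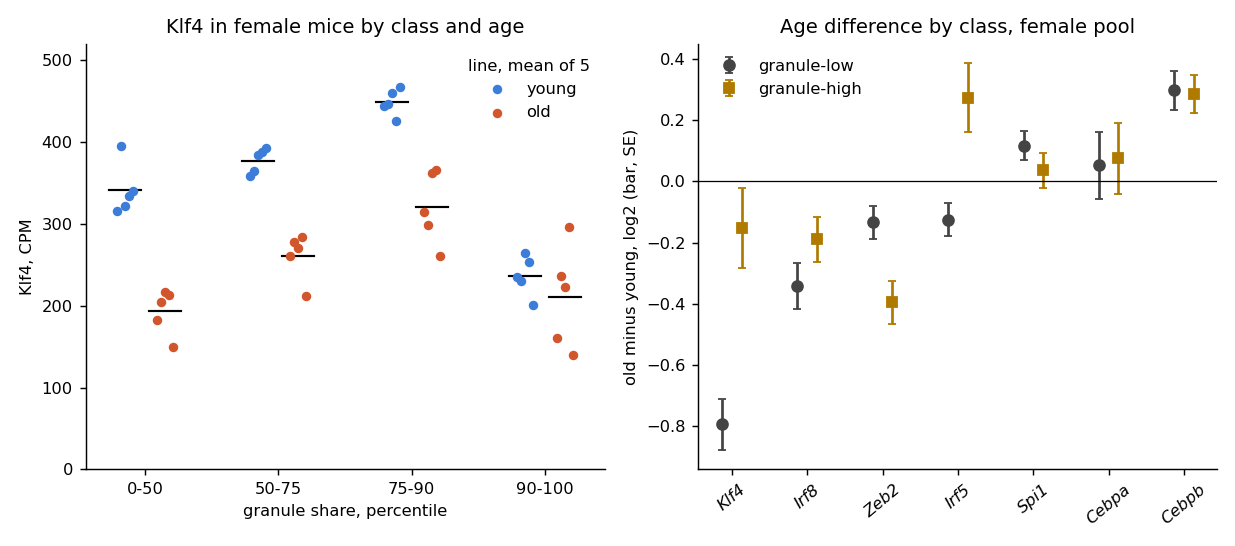
Left, Klf4 level (CPM) in each young and old female in 4 classes of granule share (percentiles), with a line at the mean of 5 mice; right, log2 difference of old minus young (bar, SE) of the members tested in the class at or under the 50th percentile (granule-low) and over the 90th (granule-high). Old females lie below all young females in the first 3 classes and overlap with them in the last, and Klf4 is at -0.80 in granule-low and -0.15 in granule-high cells.

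Female cells had also been stained with 6 surface antibodies, which gave a readout at the protein level. The integrin CD11b, Ly6C and CD115, the receptor for colony-stimulating factor 1, were part of the sort, and MHC-II presents antigen to T cells. Within each mouse, cells over the 75th percentile of an antibody were compared with cells at or under the 25th percentile, after centring its log counts on the 6 antibodies of the cell, with 1657 cells on each side. Depth and granule share moved with the antibodies. Cells low in CD11b had a median of 16227 UMIs and a granule share of 0.312%, against 7618 UMIs and 0.0421% in cells high in CD11b. The CD115 antibody was sparse, with a median of 1 UMI in cells low and 10 UMIs in cells high in it. Median depth there was 8479 and 14372 UMIs, and the 6 antibodies summed to a mean of 679 and 536 UMIs. The part of depth, granule share and antibody counts in the differences was not tested.

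Markers of other cells moved with the antibodies as well. Camp, a secondary granule gene of neutrophils, was at 5.69 on the log2 scale (SE 0.49, edgeR adjusted p = 9.87e-11) in cells high against low in CD11b, at -4.96 (SE 0.33) for Ly6C and at -4.99 (SE 0.35) for CD115, and Treml4, a gene of Ly6C-low monocytes, was at 2.87 (SE 0.21) for CD11b and -2.66 (SE 0.21) for Ly6C. The neutrophil list, with 4 of 4 genes detected, summed to 9.14 to 6462 CPM over the 10 mice (median 17.2 CPM) in cells high in CD11b and to 6.41 to 24.9 CPM (median 11.5 CPM) in cells low in it, and 2 or more of its UMIs were found in 21 and 37 of 1657 cells. In cells low in Ly6C and in CD115 it reached 4231 and 3526 CPM in a mouse, with medians of 27.5 and 13.1 CPM. The Ly6C-low monocyte list without the member Nr4a1 (Ace, Treml4 and Cd300e) summed to 13.3 to 41.6 CPM in cells high and 0.460 to 6.42 CPM in cells low in CD11b, with Cd300e at 0 in both, and to 0.549 to 6.54 CPM in cells high and 8.54 to 82.6 CPM in cells low in Ly6C. For MHC-II the Ly6C-low monocyte list summed to 3.62 to 51.1 CPM in cells high and 1.63 to 13.4 CPM in cells low. There, 2 or more of its UMIs were found in 76 and 25 cells. The neutrophil list reached 2381 CPM in a mouse in cells high and 369 CPM in cells low in MHC-II, with medians of 9.63 and 12.1 CPM. Cells with 2 or more UMIs of either list were therefore left out in a further fit, which kept 1537 cells high and 1609 cells low in CD11b. Its values were 2.998 for Nr4a1, 1.04 for Zeb2, 0.81 for Irf5, -0.82 for Irf8 and -0.35 for Klf4 with CD11b, and -2.08 for Irf4, -1.74 for Nr4a1, 0.41 for Klf4 and -0.35 for Zeb2 with Ly6C, and every member tested there kept its call for these antibodies. Irf4 was too sparse in that fit to be tested with CD11b, and for CD115 Cebpa alone lost the call (-0.12, edgeR adjusted p = 0.0604).

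CD11b set Irf8 and Klf4 apart from the other members. Of 9 tested, 7 were higher in cells high in CD11b and 2 lower, beside 36.2% upward and 35.3% downward of 8377 genes. Nr4a1 was higher by 2.95 (SE 0.16), Irf4 by 2.16 (SE 0.21), Zeb2 by 1.03 (SE 0.06) and Irf5 by 0.80 (SE 0.06) on the log2 scale. Irf8 was at -0.85 (SE 0.05, edgeR adjusted p = 3.18e-14) and Klf4 at -0.38 (SE 0.06, edgeR adjusted p = 2.7e-06). With raw antibody counts in place of the centred ones, every member tested kept its call, from 2.87 for Nr4a1 to -0.76 for Irf8. Irf4 was not tested with raw counts.

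Ly6C, the antigen that defines classical monocytes, gave 3 members upward and 6 downward of 9, beside 21.9% and 22.6% of 8366 genes. Klf4 was higher in cells high in Ly6C by 0.44 (SE 0.05), Irf8 by 0.15 (SE 0.04) and Cebpb by 0.15 (SE 0.03), while Irf4 was at -2.08 (SE 0.20), Nr4a1 at -1.93 (SE 0.14) and Zeb2 at -0.37 (SE 0.04). Irf4 and Nr4a1, 2 of the 6 downward, are subject to the limit of the filter given for CD11b. With raw antibody counts Irf8 (0.05, edgeR adjusted p = 0.332) and Zeb2 (-0.09, edgeR adjusted p = 0.110) lost the call, Nr4a1 was at -0.56 and Irf4 was not tested. For CD115, 2 of 8 were upward and 6 downward, beside 28.6% and 29.5% of 8199 genes, with Irf8 at 0.55 (SE 0.04), Klf4 at 0.16 (SE 0.05), Zeb2 at -0.62 (SE 0.03) and Nr4a1 at -1.50 (SE 0.18). With raw counts Klf4, Spi1, Cebpa and Cebpb lost the call for CD115.

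With MHC-II 413 of 8160 genes were called, and 1367 of 8121 with raw antibody counts. Of 8 members tested, 0 were upward and 1 downward, beside 3.27% upward and 1.79% downward of 8160 genes. Klf4 was lower in cells high in MHC-II by a log2 difference of -0.26 (SE 0.06, edgeR adjusted p = 0.00845), and by -0.24 with raw antibody counts (edgeR adjusted p = 0.000975). Irf8 was at -0.05 (SE 0.06, edgeR adjusted p = 0.727). Raw counts brought Nr4a1 (1.04, edgeR adjusted p = 0.000168) and Zeb2 (0.21, edgeR adjusted p = 0.0138) over the threshold, Zeb2 with the opposite sign to its centred value of -0.06. Without the cells bearing neutrophil or Ly6C-low monocyte markers, Cebpb passed the test at -0.15 (edgeR adjusted p = 0.0373).

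**Figure D4:**
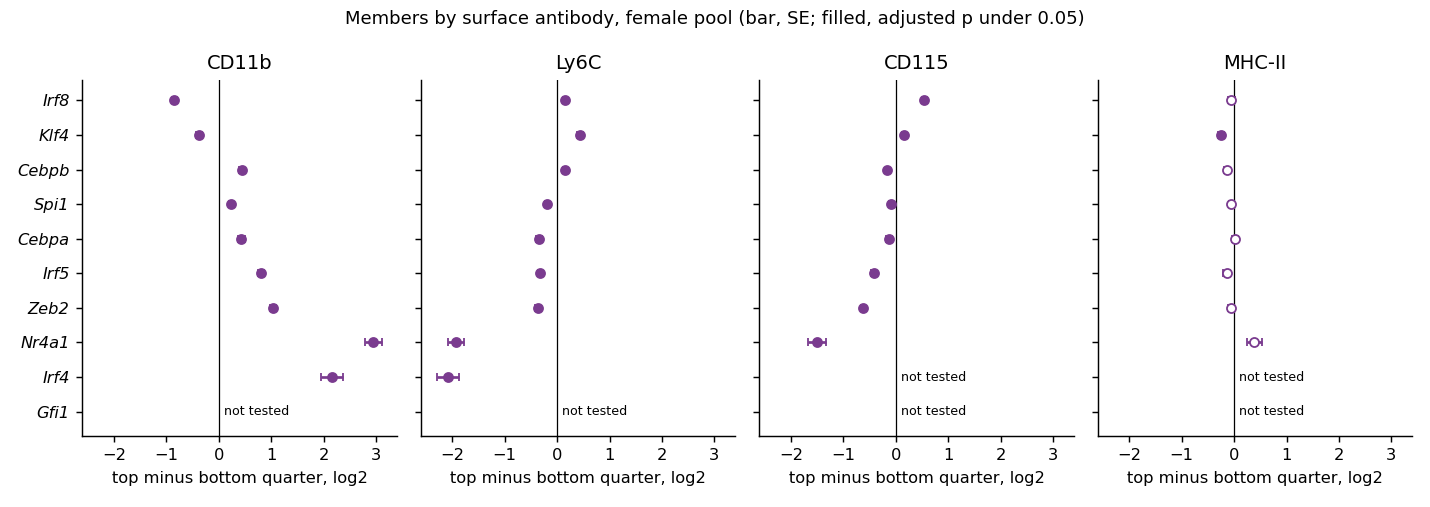
Log2 difference of each member between female cells over the 75th and at or under the 25th percentile of surface CD11b, Ly6C, CD115 and MHC-II within each mouse (bar, SE; filled points, edgeR adjusted p under 0.05; open points, not called). Irf8 and Klf4 are lower in cells high in CD11b, where Nr4a1 reaches 2.95, and Klf4 is the 1 filled point for MHC-II at -0.26.

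Among 50 other transcription factors of myeloid cells, 44 were tested by age in females, of which 2 rose and 4 fell, with a median log2 difference of -0.02, beside 0.00 over all genes. Of all 10074 genes tested, 2.03% rose and 1.4% fell. Irf1, an interferon-response factor, rose by 0.64 (edgeR adjusted p = 0.0340). Jun went from 241 ± 21.8 to 125 ± 15.4 CPM (log2 difference -0.94, edgeR adjusted p = 1.75e-05) and Fos from 390.3 ± 22.5 to 269 ± 41.6 CPM (-0.53, edgeR adjusted p = 0.00306). Both are immediate-early genes. Hhex, a homeobox factor of blood progenitors, fell by 0.32 (edgeR adjusted p = 0.0267), and the remaining factor that fell was Klf2, named after its value was seen. Of 28 genes downstream of the members, 25 were tested, and 3 rose and 0 fell, beside the same 2.03% and 1.4% of all genes. Ciita, the master regulator of MHC-II genes, rose by 2.22 (edgeR adjusted p = 0.00764), the Fc receptor gene Fcgr1 by 0.95 (edgeR adjusted p = 6.3e-07) and Ly6c2 by 0.25 (edgeR adjusted p = 0.0106). In males 35 factors and 22 downstream genes were tested and none passed, as was so for every gene tested there with edgeR.

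Along the granule share in females, 5 of 39 other factors rose and 30 fell, with a median log2 difference of -1.53, beside -0.04 over all genes. Of all 8338 genes tested, 39.4% rose and 42.1% fell. The progenitor factors Myb (4.31), Myc (2.72) and the granulocyte factor Cebpe (1.66) rose the most, and Batf3 (-4.13) and Irf7 (-3.99) fell the most. Id1 and Tfec, named after their values were seen, also rose. Of 21 downstream genes 4 rose and 16 fell, among them Ms4a3 (6.13), a marker of granulocyte-monocyte progeny, upward, and Fcgr1 (-3.75), Cx3cr1 (-3.66) and Itgam (-3.33), which encodes CD11b, downward. In males 0 of 10 factors rose and 7 fell, led by Id2 (-2.16) and Klf2 (-2.08), and 2 of 15 downstream genes rose, Ms4a3 (4.83) and Ly6c2 (0.60), while 13 fell. Of all 2041 genes tested in males, 33.2% rose and 33% fell.

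The genes whose course was most like that of a member were sought over 40 points, the 10 female mice in 4 classes, by the Pearson correlation of log2 CPM among 8338 genes. Points of a mouse share its library and its depth, so that the values describe this data set only. Pld4 was nearest to Irf5 (r = 0.982), Plek to Zeb2 (r = 0.977), 1700020L24Rik to Irf8 (r = 0.940), Dse to Spi1 (r = 0.936) and Pou2f2 to Nr4a1 (r = 0.932). The nearest genes were less close for Klf4 (Upb1, r = 0.879), Cebpa (Fam174a, r = 0.858) and Cebpb (Bcl3, r = 0.843).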

How the data were processed

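The 10 members, the gene lists and the tests were chosen with earlier results of these data known. Each deposited value was the UMI count of a gene or antibody in a cell, made by the authors, per their methods and the submitters' processing notes, with Cell Ranger 4.0.0 and STAR 2.5.1 on mm10, without normalization; the file headers name other Cell Ranger versions. Hashtags were matched to mice by the authors' table. All 1227 male barcodes were assigned by the leading hashtag, since HTODemux (Seurat 5.3.0) called 401 of them doublets although a median of 95.1% of their hashtag counts came from 1 hashtag. Of 10433 female barcodes, 6641 were HTODemux singlets with over 200 genes and under 5% mitochondrial UMIs. No doublet caller on expression was run. Summed counts were tested across all genes with edgeR 4.0.16 (R 4.3.3, quasi-likelihood, TMM, filterByExpr, two-sided, Benjamini-Hochberg at 0.05), with the mouse as a block where classes of the same mice were compared; DESeq2 1.42.0, other scalings, filters, cell choices, thinning and fits without each mouse were alternatives. The scripts were tested on simulated data. Named genes were the members, up to 3 called genes per list and direction, and the nearest gene per member. Mouse numbers did not pair young with old mice (pairs correlated at r = -0.0460 to 0.0883). Intervals of log2 differences are normal approximations from the SE. Intervals of UMI ratios cover counting error only, and floors cover only that of the class at 0 UMIs. Gene positions are from GENCODE on GRCm38. Some results on other transcription factors are not reported here.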

Additional observations from a re-analysis of the deposited data

Results flagged for a closer look

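Spi1 in young female 3 was the lowest of its group at 535 CPM, apart from the other 4 mice at 596 to 614 CPM. Of 40 groups of 5 mice examined for a value far from the rest (10 members, both ages and both pools), this was the 1 found, and chance gives about 1 in 20. The age effect on Klf4 in females differed between the granule classes by 0.65 on the log2 scale in a test of the difference itself (edgeR adjusted p = 0.00232), with old mice far below young mice in granule-low cells and on both sides of them in granule-high cells. That difference rests in part on old mouse 4, whose Klf4 level in granule-high cells was 296 CPM, and without it was 0.50 (edgeR adjusted p = 0.0524).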

How the results depend on the processing

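Directions and calls of the members were the same in 980 member values recomputed under another setting, with 33 that lost a call, 11 that gained one and 29 that changed sign. Counts of called genes stayed within 1.5 times in 121 settings and moved further in 32. By age in males the count of 0 became 1 with the mice blocked by replicate number, 22 with DESeq2, 95 without a filter, 1 without cells bearing markers of other cell types and 0 to 39 without a mouse (39 without old 1 and 24 without old 4). In females the 345 calls became 45 with as many cells as males, 145 after thinning, 38 in granule-high cells and 194 to 522 without a mouse (522 without old 4, 194 to 216 without young 1, 2, 4 or 5); the replicate block, which pairs mice that share only a number, gave 305 calls. The sex difference (2 calls) became 4 with DESeq2, 1 with HTODemux singlets, 5 without a filter, 0 after thinning and 1 to 4 without a mouse (1 without male old 1, 4 without male old 3). The class contrast became 2866 without a filter, 4 in low-cycling cells and 357 after thinning in males, and 136 and 2542 in low-cycling and thinned female cells. Its interaction with age became 13 in high-cycling, 15 in marker-free and 2 in thinned female cells, 14 to 33 without a female (14 without old 4) and 0 to 3 without a male (3 without young 3). Raw antibody counts gave 1367 calls for MHC-II in place of 413 and 2020 for Ly6C in place of 3720. The fits without cells bearing neutrophil or Ly6C-low monocyte markers and those within granule-low, granule-high or high-cycling cells, the alternatives of the interaction with age and the sex difference without a mouse were chosen after seeing the data.

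Signs changed in males by age for Irf8 after thinning (0.077) and without young 3 (-0.15 to 0.0059 over the fits without a mouse), Spi1 (-0.070 to 0.011) and Cebpb (-0.15 to 0.030) without old 4, Nr4a1 (0.36) and Spi1 (0.034) in granule-low cells, and Klf4 (0.12) and Cebpb (0.16) in granule-high cells. In females by age they changed for Cebpa with the replicate block (-0.0024), with as many cells as males (-0.10), with the leading hashtag at 80% or more (-0.052), after thinning (-0.058) and in 5 of the fits without a mouse (-0.10 to 0.063), for Gfi1 without old 5 (-0.029 to 0.30 over these fits) and for Irf5 in granule-high cells (0.27). Between classes in low-cycling cells they changed for male Zeb2 (0.012) and for female Irf8 (-0.012), Irf5 (0.061), Klf4 (0.19), Spi1 (0.063) and Cebpa (0.066), and female Klf4 changed sign with the 80th percentile (0.18) and without marker cells (0.014). With raw MHC-II counts Irf5 (0.065) and Zeb2 (0.21) did. In all cases but Klf4 at the 80th percentile and Zeb2 with raw MHC-II counts the changed value was not called, and the cause was not tested. Depth limits Irf4 and Gfi1 in males, which were too sparse for most tests. Without the block of mice, Klf4 between the female classes was at -0.23 (edgeR adjusted p = 0.132).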
